A study of Homo sapiens with 12 samples.

Results

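The regions described here are 1513 strong binding sites of wild-type PPARγ at which no peak was called for the KQ mutant. They were chosen by 3 conditions on the authors' deposited peak lists. The pooled wild-type peak lay on chromosomes 1 to 22 or X with a −log10 q of at least 25, it overlapped a peak in each of the 2 wild-type libraries by 1 bp or more, and it overlapped no peak in any of the 3 KQ lists (2 libraries and their pool). Of the 25164 pooled wild-type peaks on these chromosomes, 2571 reached this q, and 1513 of those met the other conditions. They are called lost sites below, a name for absence from the KQ lists and not for a measured loss of signal, because a list holds no value where no peak was called. The comparison set was 924 wild-type peaks of the same range of q that did overlap a pooled KQ peak (956 with no upper limit on q). A further 102 strong peaks belonged to neither class, of which 49 had a peak only in a single KQ library and 53 had no KQ peak but were missing from 1 wild-type library.

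The cells were MCF10A-NeuT, human mammary epithelial cells that carry the NeuT oncogene as a transforming gene, and all of them held a stably integrated pMSCV-IRES-GFP retrovirus. The groups used were PPARg K154/155Q ChIP (KQ, 2 libraries), a receptor with glutamine in place of 2 adjacent lysines, and PPARg wild-type ChIP (2 libraries). The vector ChIP and the input libraries were not analysed here, so sites bound by receptor from the cells' own gene were not set apart. The protocol names an antibody to PPARγ and the design text one to Flag, and neither states whether replicates came from separate cultures. The recovered background, meaning the number of tags the caller expected at a summit, differed between the lists. Its lowest value was 1.17 in the pooled KQ list, against 0.524 in the pooled wild-type list. The KQ libraries had lowest backgrounds of 0.613 and 0.588, against 0.354 and 0.145 in the wild-type libraries. Read counts were not used, so sequencing depth itself was not measured. The pooled KQ list held 2846 peaks in all.

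PPARγ is a nuclear receptor for fatty acids and their derivatives. It binds DNA together with the retinoid X receptor at response elements called DR1, which are direct repeats of the half-site AGGTCA with 1 base between them. In fat cells it drives the genes of lipid droplets, fatty acid uptake and adipocyte identity, and in mammary epithelium it has been linked to differentiation and to lipid metabolism.

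The promoters under lost sites are shown first, since the summit and the letters under it can be read together there. RefSeq promoters (GRCh38.p14, 250 bases before to 50 after each start) were at hand for 34961 starts, and 48 lost summits lay in one. Of these, 33 belonged to protein-coding genes and 15 to noncoding genes. The summits sat between 205 bases before and 44 bases after the start, with a median of 57.5 bases before it. The 7 stretches below are the parts of the peaks that lie in the 250 bases before the start, on the strand of the gene, and some of the peaks extend beyond them. They are all 5 lost promoters whose best DR1 match had 2 mismatches or fewer, followed by PLIN4 and TBP, which had 3 mismatches and were chosen after their values were seen. Capitals mark the best match to the DR1 element, read on either strand.
SCAP: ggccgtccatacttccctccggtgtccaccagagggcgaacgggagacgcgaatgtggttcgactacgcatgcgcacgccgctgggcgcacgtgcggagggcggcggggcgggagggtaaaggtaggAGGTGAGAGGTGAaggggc
ACSL1: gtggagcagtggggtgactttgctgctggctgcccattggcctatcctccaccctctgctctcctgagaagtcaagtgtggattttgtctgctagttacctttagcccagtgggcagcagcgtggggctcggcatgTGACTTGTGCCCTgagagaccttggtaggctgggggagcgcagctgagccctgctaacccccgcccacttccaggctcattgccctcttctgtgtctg
AQP7: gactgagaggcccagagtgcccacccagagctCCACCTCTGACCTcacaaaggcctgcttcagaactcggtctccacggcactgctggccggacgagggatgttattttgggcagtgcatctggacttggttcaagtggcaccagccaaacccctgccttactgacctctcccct
RNFT1-DT: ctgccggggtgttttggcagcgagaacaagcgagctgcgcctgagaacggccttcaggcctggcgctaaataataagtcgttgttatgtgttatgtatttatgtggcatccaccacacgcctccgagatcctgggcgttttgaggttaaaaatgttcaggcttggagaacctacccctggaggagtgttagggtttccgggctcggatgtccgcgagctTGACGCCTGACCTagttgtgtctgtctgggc
ARL6IP1: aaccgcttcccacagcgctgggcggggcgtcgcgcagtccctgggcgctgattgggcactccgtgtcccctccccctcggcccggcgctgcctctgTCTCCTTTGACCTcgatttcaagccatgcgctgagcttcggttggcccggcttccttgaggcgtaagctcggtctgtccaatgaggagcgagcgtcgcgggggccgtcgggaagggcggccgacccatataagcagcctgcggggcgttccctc
PLIN4: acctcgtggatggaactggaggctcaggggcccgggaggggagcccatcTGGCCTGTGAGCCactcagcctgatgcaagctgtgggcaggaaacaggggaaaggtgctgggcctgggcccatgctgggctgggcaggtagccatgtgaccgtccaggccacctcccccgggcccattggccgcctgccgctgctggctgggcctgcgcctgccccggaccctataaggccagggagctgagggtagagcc
TBP: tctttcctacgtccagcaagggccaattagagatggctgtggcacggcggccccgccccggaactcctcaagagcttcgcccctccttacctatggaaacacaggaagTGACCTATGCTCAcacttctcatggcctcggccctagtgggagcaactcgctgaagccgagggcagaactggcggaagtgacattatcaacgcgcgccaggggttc

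SCAP escorts the sterol-regulated transcription factors to the Golgi, and the stretch shown is chr3:47475942-47476087, minus strand. Its match was centred 31 bases from the summit. ACSL1 joins fatty acids to coenzyme A (chr4:184805570-184805803, minus strand), and its match lay 44 bases from the summit. AQP7 is the glycerol channel of fat cells (chr9:33402569-33402743, minus strand). Its match lay 85 bases from the summit, the farthest of the 5. RNFT1-DT is a divergent noncoding transcript (chr17:59964846-59965095, plus strand), with a match 12 bases from the summit. ARL6IP1 is a protein of the endoplasmic reticulum membrane (chr16:18801550-18801799, minus strand), and its match was centred 3 bases from the summit, the nearest of the 5. PLIN4, a coat protein of lipid droplets (chr19:4518487-4518736, minus strand), had a match 18 bases from the summit. TBP, the TATA-binding protein of the general transcription machinery (chr6:170554155-170554368, plus strand), had one 10 bases away.

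For contrast, 23 summits of the comparison set lay in a promoter, and 4 of these had a DR1 match with 2 mismatches or fewer. A pair of them is shown with the same marking: FRMPD1 (chr9:37602992-37603228, plus strand), a scaffold protein gene, and the noncoding LOC107985219 (chr1:160284175-160284364, plus strand). This pair was chosen after its values were seen. The matches were centred 35 bases from the summit at FRMPD1 and 8 at LOC107985219. Those of LOC101927405 and SDCBP2, not shown, lay 9 and 4 bases away. The median distance was 8.5 bases over these 4 comparison promoters and 31 bases over the 5 lost ones.
FRMPD1: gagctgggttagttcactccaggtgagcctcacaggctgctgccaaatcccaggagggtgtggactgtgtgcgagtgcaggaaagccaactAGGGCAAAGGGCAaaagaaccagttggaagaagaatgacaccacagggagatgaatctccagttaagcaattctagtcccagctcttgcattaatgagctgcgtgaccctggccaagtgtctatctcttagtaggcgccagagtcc
LOC107985219: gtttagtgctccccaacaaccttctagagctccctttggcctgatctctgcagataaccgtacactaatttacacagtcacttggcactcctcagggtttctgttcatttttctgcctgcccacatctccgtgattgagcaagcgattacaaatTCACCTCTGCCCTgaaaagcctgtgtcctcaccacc

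The full element AGGTCANAGGTCA was searched in both strands of the 300-base promoters. No lost promoter and no comparison promoter held it exactly or with 1 mismatch. A match with 2 mismatches or fewer was in 5 of 48 lost promoters, or 10.4% (95% Clopper-Pearson interval 3.47% to 22.7%), in 4 of 23 comparison promoters, or 17.4% (4.95% to 38.8%), and in 2.96% of all promoters. With 3 mismatches allowed, the shares were 50.0% of lost promoters, 47.8% of comparison promoters and 20.8% of all promoters. The single half-site AGGTCA, which is part of the full element and is counted with it, was in 13 of 48 lost promoters (27.1%, interval 15.3% to 41.8%), in 2 of 23 comparison promoters (8.70%, interval 1.07% to 28.0%) and in 13.8% of all. The AP-1 element TGANTCA was in 11 of 48 lost promoters (22.9%), in 4 of 23 comparison promoters (17.4%) and in 7.68% of all. The intervals of lost and comparison promoters overlapped for each motif. The median GC content of the promoters was 59.2% for lost sites, 57.7% for comparison sites and 58.7% for all. Motif matches describe letters in a window and are not measured binding sites.

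The lost sites were strong in the wild-type lists by construction. Their fold enrichment over background, the authors' value, ranged from 6.29 to 35.2 with a median of 12.7, against 7.15 to 29.9 with a median of 13.2 at the comparison sites. The −log10 q, on which they were selected, had a median of 32.1 at lost sites and 39.0 at comparison sites. Tag numbers were recovered from fold and p and are whole numbers of tags at the summit. Lost sites had 23 to 102 tags with a median of 42, and comparison sites had 23 to 112 with a median of 50. The median width was 277 bp at lost sites and 313 bp at comparison sites. A wider peak has more room to overlap a KQ peak by 1 bp, so width was not independent of the rule. The ranges of both sets overlapped in each of these measures, and the medians of the lost sites were lower throughout.

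Presence in both wild-type libraries was part of the selection, but how the sites divided between the libraries was not. In library 1 the median fold at lost sites was 10.5 and in library 2 it was 9.57. The tags behind these values were fewer in library 2, with a median of 15 and a range of 5 to 46, than in library 1, with a median of 29 and a range of 11 to 73. The tags of both libraries added up to 1.06 times the pooled number in the median site. Library 1 gave the higher fold at 857 lost sites and library 2 at 656. Across the 1513 sites, log2 fold in the 2 libraries had a Pearson correlation of −0.15 and a Spearman correlation of −0.16, and across the 914 comparison sites present in both libraries the values were 0.06 and 0.08. The sites were selected on the pooled q, to which both libraries contribute, so nothing is read from these values beyond their description of the chosen sites.

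The share of lost sites depended on strength. Among the 2507 strong wild-type peaks found in both libraries 60.4% had no KQ peak, and among all 8033 wild-type peaks found in both libraries the share was 78.7%. Both shares come from the contrast that defined the lost sites. Of the strong peaks with a −log10 q of 25 to 30, 585 of 820 were lost, or 71.3% (68.1% to 74.4%, Clopper-Pearson interval, counting error only). From 30 to 35 the share was 69.0%, from 35 to 40 it was 56.9%, and from 40 to 50 it was 49.6%. From 50 to 60 it was 41.5% and from 60 to 80 it was 27.4%. Above 80, 2 of 56 peaks were lost, or 3.57% (0.435% to 12.3%). These 2 were the sites at the CDK11A promoter and near ARHGEF7. The share fell in every step of q, and both q and KQ overlap were used to choose the sites. Most lost sites lay in the lower part of the range, where most strong peaks of any class lay as well.

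**Figure D1:**
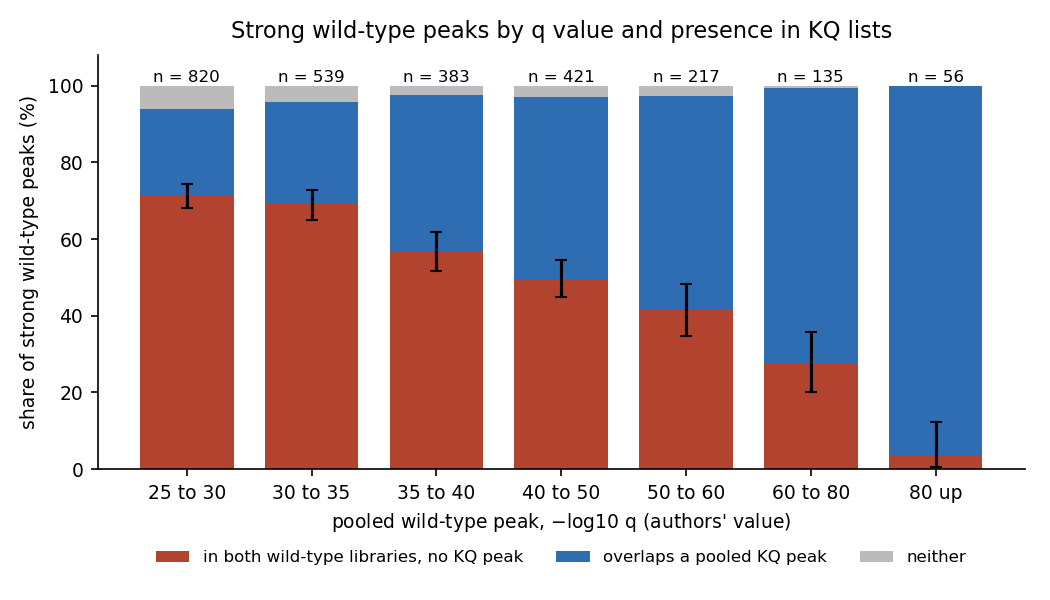
Share of strong wild-type peaks (%, y axis) by the authors' −log10 q of the pooled wild-type peak (x axis), split into lost sites, peaks that overlap a pooled KQ peak, and peaks in neither class; bars on the lost share are 95% Clopper-Pearson intervals. The lost share was 71.3% in the lowest bin and 3.57% in the highest.

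The q threshold cut through sites of nearly the same q. The 3 lost sites just inside it, at or near KSR2, PGBD5 and P2RY1, were tied at a −log10 q of 25.04 with 47 tags each. The 3 peaks just outside it that met the other conditions, at or near ANKDD1A, PPP2R2B and SOX9, were tied at 24.98 with 37 tags each on a lower background. By pooled fold the sites just outside were the stronger, at 10.1 each against 7.82 each for those just inside.

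What a KQ peak took to be called gives a scale for these tag numbers. At the median background of the pooled KQ list, 4.12 tags, 15 tags would have reached the lowest p of that list. At its 95th percentile of background, 8.92, it would have taken 23. All 1513 lost sites, selected for a high q, had at least 23 tags in the pooled wild-type list. For single libraries, KQ library 1 would have needed 10 tags at its median background and 17 at its 95th percentile. By the tags of wild-type library 1, all 1513 lost sites reached 10 tags and 1483 (98.0%) reached 17. By those of wild-type library 2, 1381 lost sites (91.3%) reached 10 tags and 615 (40.6%) reached 17. These are wild-type tags set against KQ thresholds, with no scaling between the lists. Pooled tags were recovered from fold and p, and q rests on p. The selection on q thus fixed a high tag number in the pooled list. Whether the KQ lists could have called these sites was not tested, and the KQ signal at the lost sites was not analysed here.

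**Figure D2:**
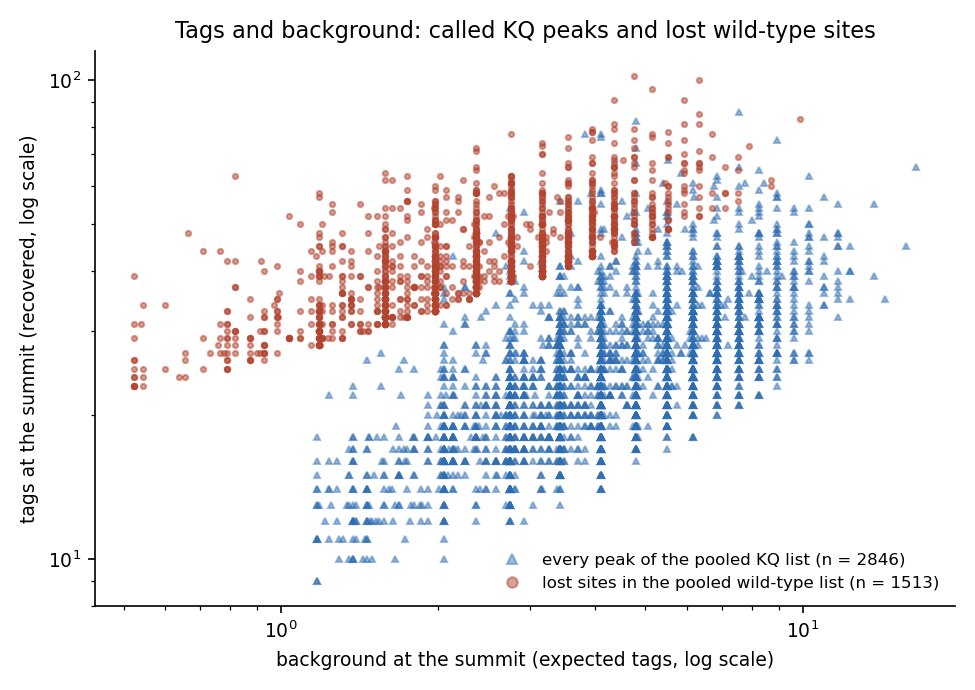
Recovered tags at the summit (y axis, log scale) against the caller's expected background at the summit (x axis, tags, log scale) for every peak of the pooled KQ list (triangles) and for the lost sites in the pooled wild-type list (circles). All 1513 lost sites, selected for a high q, had 23 tags or more, and the called KQ peaks reached down to 9 tags. The median background was 4.12 for the KQ peaks and 2.37 for the lost sites.

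At the comparison sites the peaks of both receptors can be set side by side. The pooled KQ list gave a median of 29 tags (12 to 82) and a median fold of 5.09 (2.39 to 15.2) at the 924 comparison sites, against 50 tags and a fold of 13.2 in the pooled wild-type list. The sites were selected on a high wild-type q and the background differed between the lists, so these values are a description and were not compared by a test. KQ library 1 had a peak at 466 of these sites (50.4%) and KQ library 2 at 376 (40.7%). A peak in the pooled KQ list was the condition for this set.

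The strongest lost site by fold lay 35.6 kb from ARHGEF7, which encodes an exchange factor for Rac and Cdc42 (chr13:111078836-111079231). Its fold was 20.8 in the first wild-type library, 18.3 in library 2 and 35.2 in the pool, with 44, 22 and 63 tags. Second came a site inside CNTN4, a neuronal adhesion protein (chr3:2872920-2873160). Its fold was 24.3 in library 1, 10.6 in library 2 and 29.4 in the pool, so library 1 carried more of it. A site inside KALRN, another guanine nucleotide exchange factor (chr3:124415510-124415793), was even between the libraries, at 21.7 and 20.4, and had 27.0 in the pool. The next was 16.8 kb from ERN2, a sensor of unfolded proteins in the endoplasmic reticulum, with a pooled fold of 26.5 from 45 tags in library 1 and 12 in library 2. A site inside KLRF2, a lectin-like receptor of natural killer cells, had 26.3 and was one of the few at the top with the higher fold in library 2, at 20.1 against 13.2.

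The other sites among the 15 highest were at or near ANKRD7, RAB3C, IPO8, TP53I13, MACROD2, SP6, CEP170B, CDH20, SYBU and AGAP1, with pooled folds of 26.2 down to 23.9. RAB3C is a GTPase of secretory vesicles, IPO8 a nuclear import receptor, MACROD2 an enzyme that removes ADP-ribose, CDH20 a cadherin, and AGAP1 an activator of GTP hydrolysis by Arf proteins. Of the 15 summits, 7 lay inside a protein-coding gene and 8 outside. The pooled backgrounds at these sites were low, at 0.524 to 1.64 tags, against a median of 2.37 over all lost sites. The 3 strongest comparison sites by fold, at ENPP1, SYCE3 and HTR1F, had 29.9, 28.7 and 28.5. The comparison set was limited to the q range of the lost sites, which left out its strongest peaks.

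**Figure D3:**
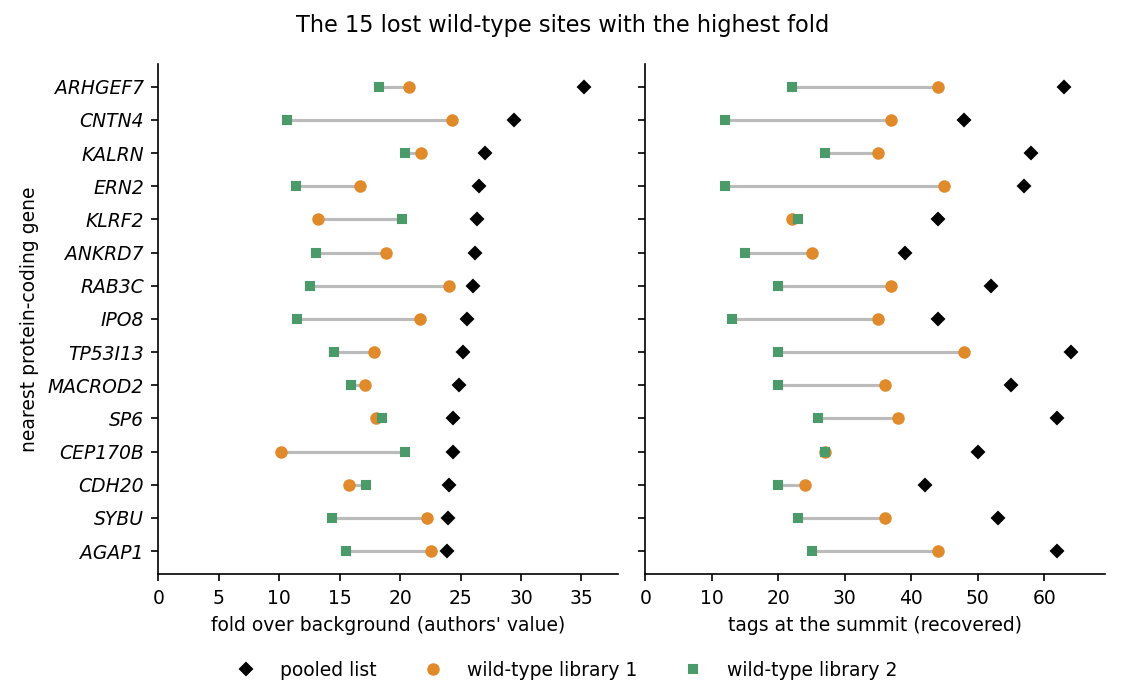
Fold over background (left, authors' value) and recovered tags at the summit (right) for the 15 lost sites with the highest pooled fold, named by nearest protein-coding gene (y axis), in the pooled wild-type list (diamonds), library 1 (circles) and library 2 (squares). The lowest fold in either library was 10.2, and library 2 had fewer tags at 13 of the 15.

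Genes were next read by the lists they belong to. A gene was counted when a site lay inside it or within 50 kb of it. By that measure 10.5% of 19974 protein-coding genes had a lost site and 6.48% had a comparison site. Longer genes have wider windows, neighbouring genes can share a site, and gene expression was not measured in these files. A gene with no comparison site could still have a KQ peak nearby. KQ peaks outside the strong wild-type peaks, or at wild-type peaks above the q range, were not counted. Of 50 genes of PPAR targets and fatty acid use, 14 had a lost site and 18 had a comparison site, with 4 genes in both counts. Of 26 adipocyte differentiation genes, 9 had a lost site and 7 a comparison site, with 4 in both. With a window of 5 kb, 9 of the 50 PPAR targets (18.0%) had a lost site, against 4.50% of all genes. When a site was counted for its nearest gene alone, 9 (18.0%) had one, against 6.54% of all genes. For comparison sites the shares were 28.0% of PPAR targets against 2.67% of all genes with 5 kb. With the nearest gene alone they were 32.0% against 4.07%. The shares of PPAR targets were above those of all genes for both classes under each of these 3 ways of counting, so this was not particular to lost sites.

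Among the lipid droplet genes, the neighbours PLIN4 and PLIN5 had 3 lost sites and no comparison site. At the PLIN4 promoter, shown above, the 2 wild-type libraries gave folds of 8.22 and 19.8, and the pool gave 13.3, with 60, 41 and 91 tags. A second site, 0.8 kb from PLIN5, had a pooled fold of 14.9 (35 and 21 tags in the libraries), and another inside PLIN4 had 9.54 (29 and 23 tags). CIDEC, which fuses lipid droplets, had a lost site inside the gene with a pooled fold of 11.9, from 29 and 16 tags. PLIN1, the main droplet coat of fat cells, had a lost site 1.2 kb away with a fold of 9.85. It also had 2 comparison sites, the stronger of which had 49 tags in the pooled KQ list and 74 in the pooled wild-type list. Of the lipases and their inhibitors, LIPE (hormone-sensitive lipase) had a lost site inside the gene with 53 and 34 tags in the libraries and a pooled fold of 16.0. A comparison site inside LIPE had 23 KQ tags and 27 wild-type tags. G0S2, an inhibitor of triglyceride lipase, had a lost site 4.6 kb away with a fold of 17.1 and a comparison site 1.3 kb away with a fold of 7.51. The stronger site at LIPE and at G0S2 was therefore the lost one, and at PLIN1 the stronger ones were the sites with a KQ peak.

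Among the enzymes that activate and burn fatty acids, ACSL5 had the highest lost site inside a gene. ACSL5 activates fatty acids as ACSL1 does, and its site had 47 and 18 tags in the libraries and a fold of 19.5. A comparison site inside ACSL5 had a fold of 17.8 in the pooled wild-type list, with 27 tags in the pooled KQ list and 59 in the pooled wild-type list. The ACSL1 site under the promoter shown above had 39 and 17 tags and a fold of 12.1. ACAA1, a thiolase of peroxisomes, had a site inside the gene with a fold of 13.8, from 26 and 16 tags. Lost sites also lay within 50 kb of ACADM, ACAA2, ACOT1 and MLYCD, which act in fatty acid breakdown, and of SCD, which desaturates fatty acids, at pooled folds of 9.69 to 19.0. None of these 5 genes had a comparison site in its window.

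Among the adipocyte genes, EBF1 and PPARGC1A, which encode a transcription factor and a coactivator of PPARγ, had a lost site inside the gene with folds of 10.7 and 14.3. EBF1 also had 2 comparison sites in its window and PPARGC1A had 1. The PPARGC1A site rested mostly on library 1, with 32 tags there and 9 in library 2. LPIN1, a phosphatidate phosphatase, BSCL2, the seipin of lipid droplet formation, and CAVIN1, which builds caveolae, had lost sites inside the gene with folds of 10.1, 9.44 and 11.1. AQP7 had 3 lost sites within its window, of which the strongest, inside the gene, had 25 and 13 tags and a fold of 15.4. It also had a comparison site inside the gene, with 37 tags in the pooled KQ list and 44 in the pooled wild-type list. CEBPA and CEBPB, transcription factors of fat cell differentiation, had lost sites 8.8 and 29.0 kb away with folds of 16.7 and 18.0. CEBPA had a comparison site in its window as well and CEBPB had none.

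**Figure D4:**
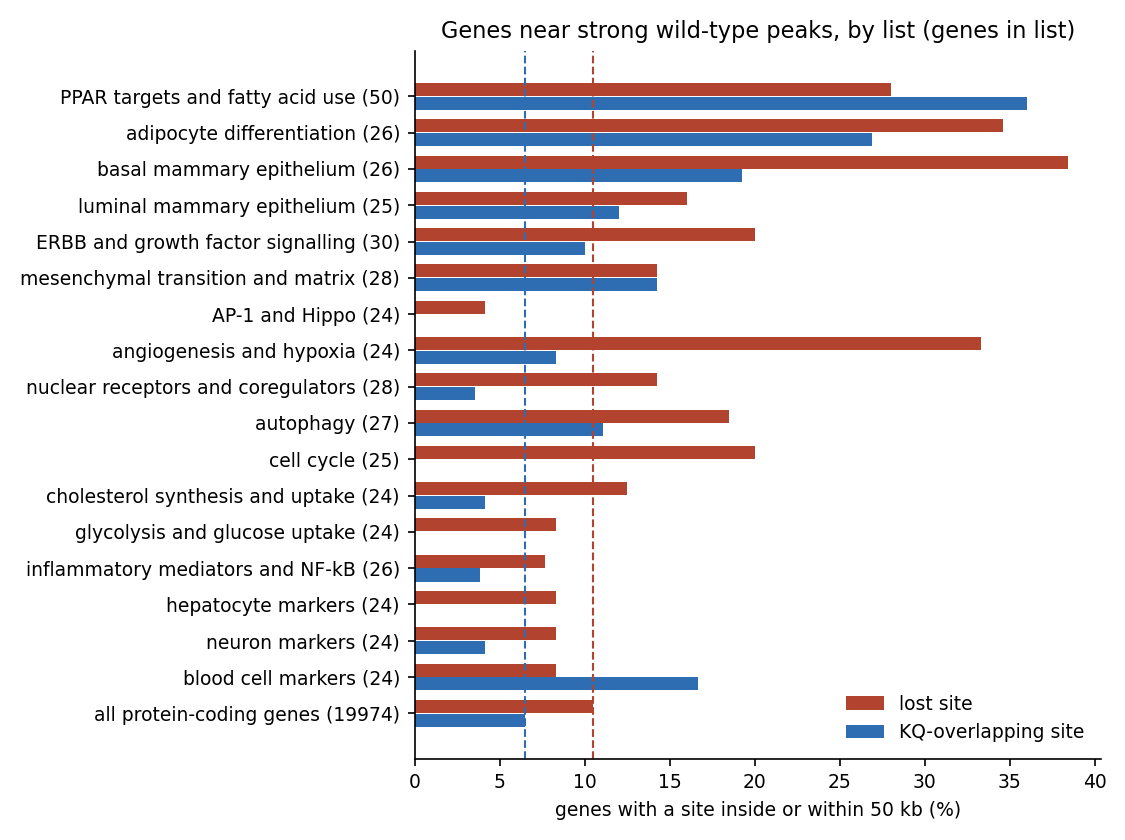
Share of the genes of each list (%, x axis) with a lost site or a KQ-overlapping site inside the gene or within 50 kb, with the number of genes in parentheses; dashed lines mark the shares over all protein-coding genes, 10.5% and 6.48%. In the list of PPAR targets 28.0% of genes had a lost site and 36.0% a KQ-overlapping site.

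Of 26 basal mammary epithelium genes, 10 had a lost site and 5 a comparison site, against 10.5% and 6.48% of all genes. Inside the genes, CAV1, the scaffold of caveolae, had a fold of 17.9 with 22 tags in each wild-type library, and ITGA6, an integrin of basal cells, had 15.6 with 28 and 12 tags. EGFR, the receptor of epidermal growth factor, had 11.0, LAMB3, a laminin chain with a comparison site in its window too, had 9.43, and MYLK, a myosin kinase, had 9.61. THY1, a surface glycoprotein, had a site 45.6 kb away with a fold of 19.8. Of 25 luminal genes, 4 had a lost site and 3 a comparison site. CDH1, the epithelial cadherin, had a lost site inside the gene with a fold of 22.4, from 28 and 17 tags, and the basal cadherin CDH3, 9.1 kb away, was counted through the same site. ESR1, the oestrogen receptor, had 2 lost sites inside the gene, the stronger with 18 tags in each library and a fold of 16.0.

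Of 30 genes of ERBB and growth factor signalling, 6 (20.0%) had a lost site and 3 (10.0%) a comparison site, against 10.5% and 6.48% of all genes. The counts of the lists in this paragraph are small, and no set test was run on them. ERBB4, a receptor of the family, had a fold of 15.6 inside the gene, and the adaptor SHC1 had 10.5 and also a comparison site in its window. AKT1 was counted through the site near CEP170B, 39.2 kb away, with a fold of 24.4. Of 28 genes of mesenchymal transition and matrix, 4 (14.3%) had a lost site and 4 (14.3%) a comparison site. COL4A2, a chain of basement membrane collagen, had a lost site inside the gene with a fold of 19.6, from 42 and 14 tags, and 3 comparison sites in its window. Of 24 angiogenesis and hypoxia genes, 8 (33.3%) had a lost site and 2 (8.33%) a comparison site, with none in both. EGLN1, the oxygen-sensing prolyl hydroxylase, had 2 lost sites inside the gene with folds of 11.7 and 13.8. ADM, the vasodilator adrenomedullin, had 3 lost sites 10.5 to 44.5 kb away.

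Of 25 cell cycle genes, 5 (20.0%) had a lost site and none a comparison site, against 10.5% and 6.48% of all genes. The counts of the lists in this paragraph are small too, and no set test was run on them. The strongest were those counted for the mitotic kinase PLK1, which is the site near ERN2 39.6 kb away, and for the cyclin-dependent kinase inhibitor CDKN1C, 22.4 kb away with a fold of 20.8. Of 28 nuclear receptor and coregulator genes, 4 (14.3%) had a lost site and 1 (3.57%) a comparison site. NR1H3, the liver X receptor alpha, had a lost site inside the gene, 67 bases before a start, with 38 and 24 tags and a fold of 14.2. THRB, a thyroid hormone receptor, had 12.2, and neither had a comparison site in its window. Of 27 autophagy genes, 5 (18.5%) had a lost site and 3 (11.1%) a comparison site. ATG7, an enzyme of autophagosome formation, had a fold of 11.96 inside the gene. Of 24 genes of cholesterol synthesis and uptake, 3 (12.5%) had a lost site and 1 (4.17%) a comparison site. SCAP, whose promoter is shown above, had 36 and 12 tags and a fold of 16.5, and INSIG1, its partner in the endoplasmic reticulum, had 3 lost sites 27.5 to 45.3 kb away with folds of 15.4 to 16.5.

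In the other lists 4.17% to 8.33% of genes had a lost site, against 10.5% of all genes. These are counts of 1 or 2 genes per list, and no difference from the background is read from them. Of 24 glycolysis genes, 2 had a lost site, among them LDHB, a lactate dehydrogenase subunit, with 15.4 inside the gene, and of 26 inflammatory genes 2 had one. In the AP-1 and Hippo list 1 of 24 genes had a lost site. The markers of other cell types had 2 of 24 each: TAT (16.7) and G6PC1 (10.3) for hepatocytes, GRIN2B (12.2 inside the gene) and CAMK2A for neurons, and CSF1R (10.8) and FCGR3A (22.6) for blood cells. For blood cell markers the count of genes with a comparison site was 4 of 24 (16.7%), against 6.48% of all genes.

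No difference in location between lost and comparison sites passed the test. Exons were not separated from introns or untranslated regions here. The summit lay no more than 1 kb from an end of a coding gene at 73 of 1513 lost sites, or 4.82% (95% Clopper-Pearson interval 3.80% to 6.03%), and at 41 of 924 comparison sites, or 4.44% (3.20% to 5.97%). Fisher's exact test, two-sided, gave p = 0.693, and 0.693 after Benjamini-Hochberg adjustment over the 2 location measures. The summit was outside any protein-coding gene at 48.0% of lost sites (45.4% to 50.5%) and at 50.4% of comparison sites (47.2% to 53.7%), for which the same exact test gave p = 0.243 and an adjusted p of 0.485. Peaks are not replicates of a condition, so these tests describe the lists. They leave room for differences of the size the intervals allow.

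Lost sites at gene ends were no stronger by fold than the rest. The median pooled fold was 12.5 at the 73 gene-end sites, 12.8 at the 748 sites inside a gene and 12.6 at the 692 between genes, with medians of 46, 42 and 42 tags. Of the 10 gene-end sites with the highest fold, TP53I13, a gene induced by p53, led with 25.2 (48 and 20 tags in the libraries), followed by SP6, a transcription factor of epithelial appendages, with 24.4 (38 and 26 tags). SEMA3G, a secreted semaphorin, had 22.0 with the summit 81 bases from the gene end, and CDRT4 and TTLL13 had 19.4 and 18.4. RNASE4, a secreted ribonuclease, had 18.1 but rested on library 1, with 38 tags there and 8 in library 2. CDK11A, a kinase of transcription and splicing, had 17.9 with the most tags of any lost site, 102 in the pool from 67 and 46 in the libraries. CDK11B is a near-identical copy of it and had a lost site of its own, 54 bases before its start with 49 tags, so reads could be split between the 2 genes and both values are uncertain. TGM5, an epidermal transglutaminase, had 17.8, NFIL3, a leucine zipper repressor, had 17.4, and TBP had 16.5.

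**Figure D5:**
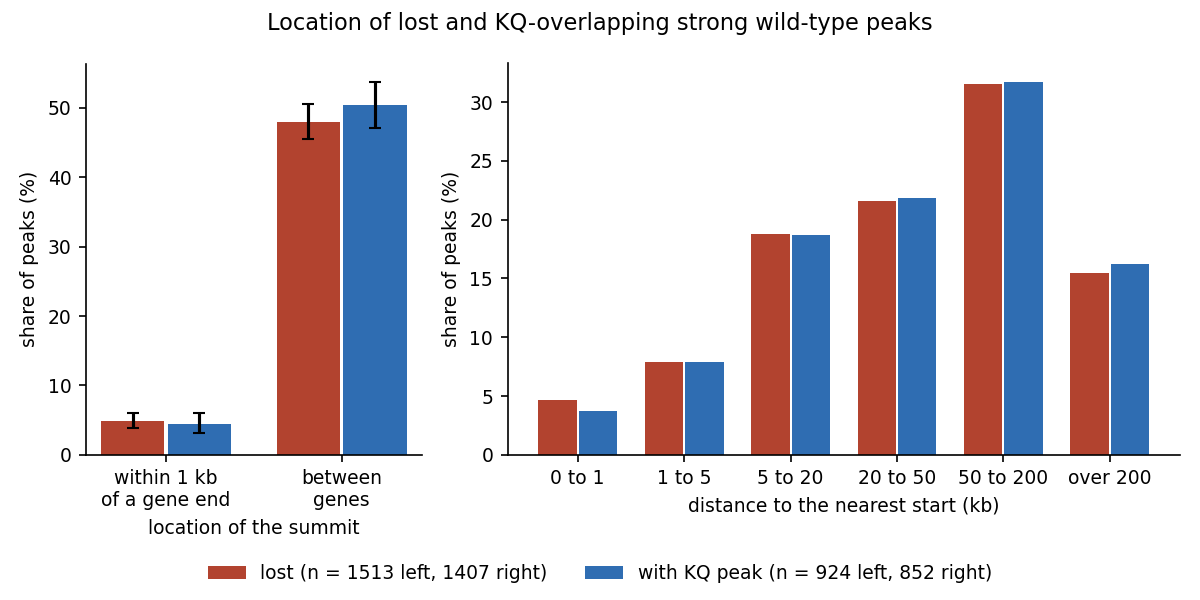
Share of sites (%, y axes) by location of the summit (left, with 95% Clopper-Pearson intervals) and by distance to the nearest protein-coding start (right, kb) for lost sites and comparison sites. Lost minus comparison sites was 0.39 percentage points at gene ends and −2.45 between genes.

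Measured from start sites, the median distance was 45.3 kb for lost sites and 46.1 kb for comparison sites, leaving out 106 and 72 sites on a chromosome with no start table. Within 1 kb of a start lay 66 of 1407 lost sites (4.69%) and 32 of 852 comparison sites (3.76%). Of those 66 lost sites, 45 lay before the start and 21 after it, and of the 32 comparison sites 21 lay before and 11 after. Both classes were thus mostly far from starts.

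Lost sites were spread over the genome with few clusters. Only 73 of the 1513 had another lost site within 10 kb (4.82%), and 302 had one within 100 kb (20.0%). A pooled KQ peak lay within 10 kb of 92 lost sites (6.08%) and within 100 kb of 457 (30.2%), and the median distance to the nearest one was 238.7 kb. Some other wild-type peak of any strength lay within 10 kb of 680 lost sites (44.9%), against 472 comparison sites (51.1%). By chromosome, over the 21 with at least 40 sites of both classes, the lost share ran between 55.4% on chromosome 20 and 75.4% on chromosome 18, with a median of 61.5%.

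A few genes held several lost sites. DLGAP1, which encodes a scaffold protein of the synapse, spans 959.3 kb on chromosome 18 and held 5 lost sites and no comparison site, with folds of 10.1 to 15.7. TENM4, a teneurin of cell surfaces, held 4 and none, with folds of 11.8 to 15.6. ALG9, a mannosyltransferase of protein glycosylation, held 4 lost sites and no comparison site, although it spans only 103.6 kb, and its sites had 33 to 42 tags. PALM2AKAP2 held 4 lost and 3 comparison sites. The lost sites there had 42 to 53 tags, and the comparison sites had 19 to 27 tags in the pooled KQ list, against 39 to 46 in the pooled wild-type list. Inside PRKCH, a protein kinase C of epithelia, 3 lost sites with folds of 9.85 to 20.3 stood beside a comparison site with a fold of 17.5. Only PALM2AKAP2 and PRKCH of these 5 genes thus held sites of both classes. A pair of lost peaks overlapped a microRNA hairpin, MIR625 (nearest gene FUT8) with 49 tags and MIR591 (nearest gene SLC25A13) with 47 tags.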

How the data were processed

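Peak lists for the KQ and wild-type ChIP libraries, 2 libraries and 1 pool each, were used, 6 lists in all. The submitters' processing notes name hg38, Bowtie2 (version 2), MACS2, HOMER, deepTools and bedtools. A setting of the caller, or an input control for it, was not given in the sources used here. Each deposited list gives a fold (ratio) over background, −log10 p and −log10 q, a score and a summit offset (in bp) per peak, all the authors' values. Fold and p were inverted, as (tags + 1)/(background + 1) and the Poisson upper tail, to a whole tag number and a background for every peak, with a misfit under 0.001 in −log10 p. The inversion and the overlap code were tested on simulated data.

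Overlap meant 1 bp or more. Gene spans, starts and promoters came from RefSeq, build GRCh38.p14 (hg38 is the same assembly), and held 19974 protein-coding genes on the chromosomes used. Shares by location were tested by Fisher's exact test, two-sided. Intervals are 95% Clopper-Pearson and cover counting error only. Replicates may be technical. Python 3.11.15, numpy 2.4.6, scipy 1.17.1 and pandas 2.3.3 were used.

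The sites and the 17 gene lists (459 genes) were chosen with earlier results of these data known. The genes named were those nearest to the 15 lost sites of highest fold, the 10 highest at gene ends, every listed gene with a lost site inside it (1 of them is not reported here) and the 5 highest others, the 3 highest comparison sites, and 3 sites on either side of the threshold. Other genes named, such as those with several sites, were chosen after their values were seen. Alternatives covered the q threshold, the overlap rule, each single-library list left out (with the pooled lists unchanged) and the gene annotation. No genome sequence was used, so sequence outside promoters was not read, and promoters and starts on 1 chromosome were not used here.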

Additional observations from a re-analysis of the deposited data

Results flagged for a closer look

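Outside the chromosomes used for the lost sites, the pooled wild-type list held 9 peaks with a −log10 q of at least 25, all on the mitochondrial genome. They drew attention because they are strong peaks in a part of the list that no comparison used. Whether these 9 peaks overlapped a peak of either wild-type library or a KQ peak was not tested. The overlap search covered only the chromosomes used for the lost sites, so it could not find a match for them.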

How the results depend on the processing

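The number of lost sites was 1513, and it was 2378 with a −log10 q threshold of 20 and 129 with a threshold of 50. It was between 1507 and 1561 when overlap needed 50% of the shorter peak, a KQ peak within 500 bp counted, or the pooled KQ list was used alone. Leaving the list of any single library out of the overlap conditions gave 1515 to 1564. The pooled lists were unchanged in those settings and still held that library, so the count without its reads was not obtained. The between-gene share of lost sites minus that of comparison sites was −2.45 percentage points. It turned to 0.56 with a threshold of 50, where 129 and 240 sites remained, and kept its sign under the other 12 alternatives. The gene-end difference of 0.39 points kept its sign under all 15 alternatives. The lowest adjusted p was 0.388 for between genes and 0.156 for gene ends (from a distance of 5 kb), so no alternative passed the threshold of 0.05. Of these, the range of −log10 q from 25 to 35 and the start-site distance were chosen after seeing the data. PPAR targets with a lost site numbered 14 with the 50 kb window and 9 with 5 kb or with the nearest gene alone. With a pseudocount of 0, tag numbers could be recovered for 0.925% of lost sites, against 100% with 1. No paired analysis was possible because the comparison is over peaks of lists and no test runs over libraries. Sequencing depth was not measured, and wild-type library 2 had as few as 5 tags at a lost site. The lowest backgrounds were higher in the KQ lists than in the matching wild-type lists. What depth does to the lost class was not tested, and no value exists where no KQ peak was called.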
